A study of Bos indicus with 5 samples.

Results

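Transcripts of 4 mucosal defense genes were followed in the ampulla, the part of the oviduct in which fertilization takes place. They are PIGR (ENSBTAG00000019798), LTF (ENSBTAG00000001292), LCN2 (ENSBTAG00000014149) and LPO (ENSBTAG00000012780), and they were picked by symbol from the 24616 genes of the deposited table. Each symbol was carried by 1 row. They were proposed because secreted defense proteins varied between these libraries, so their levels and group differences are given as a description, without a test. The tissue came from multiparous, non-lactating Nelore (Bos indicus) cows, 1 library per cow. All cows received a progesterone device (1 g) with 2 mg of estradiol benzoate, prostaglandin at device removal and once more afterwards, and a GnRH agonist to induce ovulation. In the LF/LCL group (large follicle and large corpus luteum, n = 2) an additional prostaglandin injection was given when the device was inserted, and the device was removed 42 h before GnRH. In the SF/SCL group (small follicle and small corpus luteum, n = 3) it was removed 30 h before GnRH. Tissue covering the whole wall of the oviduct on the side of the corpus luteum was collected on day 4. The cows were taken from the ends of a ranking on follicle size, corpus luteum area and steroid concentrations, so the groups represent extremes rather than all treated animals.

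The surface of the oviduct is guarded by proteins that its epithelium secretes or carries to the lumen. PIGR, the polymeric immunoglobulin receptor, takes up IgA and IgM joined by the J chain at the base of epithelial cells and releases them at the apical side together with its own cleaved extracellular part, the secretory component. LTF, lactoferrin, binds iron in secretions and is also stored in the granules of neutrophils. In the uterus of mice it is a known estrogen-responsive gene. LCN2, lipocalin-2, binds the siderophores with which bacteria collect iron. LPO, lactoperoxidase, oxidizes thiocyanate with hydrogen peroxide to an antimicrobial product in milk, saliva and airway fluid.

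The 5 libraries held from 13418278 to 19592174 reads assigned to genes. The labelled tissue was checked against markers of oviduct epithelium. OVGP1, the oviduct glycoprotein, had from 117179 to 147247 normalized reads, and FOXJ1, the transcription factor of ciliated cells, from 8481 to 12698. A normalized read is a read count divided by one size factor per library. It is not corrected for transcript length, so levels are compared here between libraries and not between genes. Of the 4 genes, PIGR and LTF had a mean over 5 normalized reads and entered the fit across all 15815 genes that met this minimum, while LCN2 and LPO did not.

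PIGR was low in the LF/LCL cows and high in the SF/SCL cows. It had 15.2 and 48.4 normalized reads in LF/LCL replicates 1 and 2, which correspond to 13 and 50 reads. In SF/SCL replicates 1, 2 and 3 it had 438, 305 and 5329 normalized reads. The groups did not overlap, and the lowest SF/SCL library was 6.29 times the highest LF/LCL library. The SF/SCL cows also differed widely among themselves, since replicate 3 was 17.5 times replicate 2 and 12.2 times replicate 1, the next library in order. The LF/LCL mean was 31.8 ± 23.4 normalized reads (SD, n = 2), while that of SF/SCL was 2024 ± 2863 (SD, n = 3). On the log2(value + 1) scale the LF/LCL mean minus the SF/SCL mean was -4.98, a 31.6-fold difference of the log means, with an SD of 1.95 within groups. Without SF/SCL replicate 3 this difference was -3.69, or 12.9-fold. It was -4.18, or 18.1-fold, without LF/LCL replicate 1 and -5.78, or 55.0-fold, without LF/LCL replicate 2. With the edgeR count model on all 5 libraries it was -5.94, or 61.5-fold. In bulk tissue fewer cells of a type and less RNA per cell cannot be told apart, which holds for every value below.

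Counting error was small beside these differences. The 95% Poisson interval of PIGR ran from 8.12 to 26.1 normalized reads in LF/LCL replicate 1 and from 35.9 to 63.8 in LF/LCL replicate 2, and these did not overlap. In SF/SCL replicates 1, 2 and 3 the intervals were 397 to 482, 275 to 336 and 5182 to 5480. All 5 intervals were therefore separate. Such intervals cover counting error only.

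LTF had the opposite order between the groups. It had 1104 and 6341 normalized reads in LF/LCL replicates 1 and 2, against 300.5, 225 and 493 in SF/SCL replicates 1, 2 and 3. Again the groups did not overlap, the lowest LF/LCL library being 2.24 times the highest SF/SCL library. Here the wide spread was in the LF/LCL group, in which replicate 2 was 5.75 times replicate 1, while the SF/SCL libraries stayed within 2.19-fold. The LF/LCL mean was 3722 ± 3703 normalized reads (SD, n = 2), while that of SF/SCL was 339 ± 138 (SD, n = 3). The log2 difference of LF/LCL minus SF/SCL was 3.03, or 8.20-fold, with an SD of 1.13 within groups. It was 1.77, or 3.42-fold, without LF/LCL replicate 2, and 4.30, or 19.6-fold, without LF/LCL replicate 1. The 5 Poisson intervals of LTF were also separate, the closest being 200.2 to 253 for SF/SCL replicate 2 and 267 to 337 for replicate 1.

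Absence of overlap is common in these data. With 2 against 3 libraries it was found for 30.1% of the 15815 tested genes, 15.0% with LF/LCL higher and 15.1% with SF/SCL higher. As PIGR and LTF were chosen with their values in these libraries known, nothing is read from their being among these genes.

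LCN2 and LPO were close to the limit of detection. LCN2 was covered by 23 reads in all. It had 1.17 and 3.87 normalized reads in LF/LCL replicates 1 and 2 (1 and 4 reads), and 1.04, 8.55 and 6.44 in SF/SCL replicates 1, 2 and 3 (1, 11 and 6 reads). The groups overlapped, and the Poisson intervals of all 5 libraries shared values, as the highest lower bound was 4.27 and the lowest upper bound 5.79 normalized reads. A difference in LCN2 was not detectable at this depth.

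LPO was covered by 2 reads in all, 1 each in replicates 2 and 3 of SF/SCL. It had no read in either LF/LCL library or in SF/SCL replicate 1. A count of 0 allows up to 3 reads (a one-sided 95% limit, while the two-sided interval drawn in the plot of the 4 genes reaches 3.69 reads), which is 3.52 and 2.90 normalized reads in LF/LCL replicates 1 and 2 and 3.12 in SF/SCL replicate 1. No fold is given because both groups lay under this limit.

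**Figure D1:**
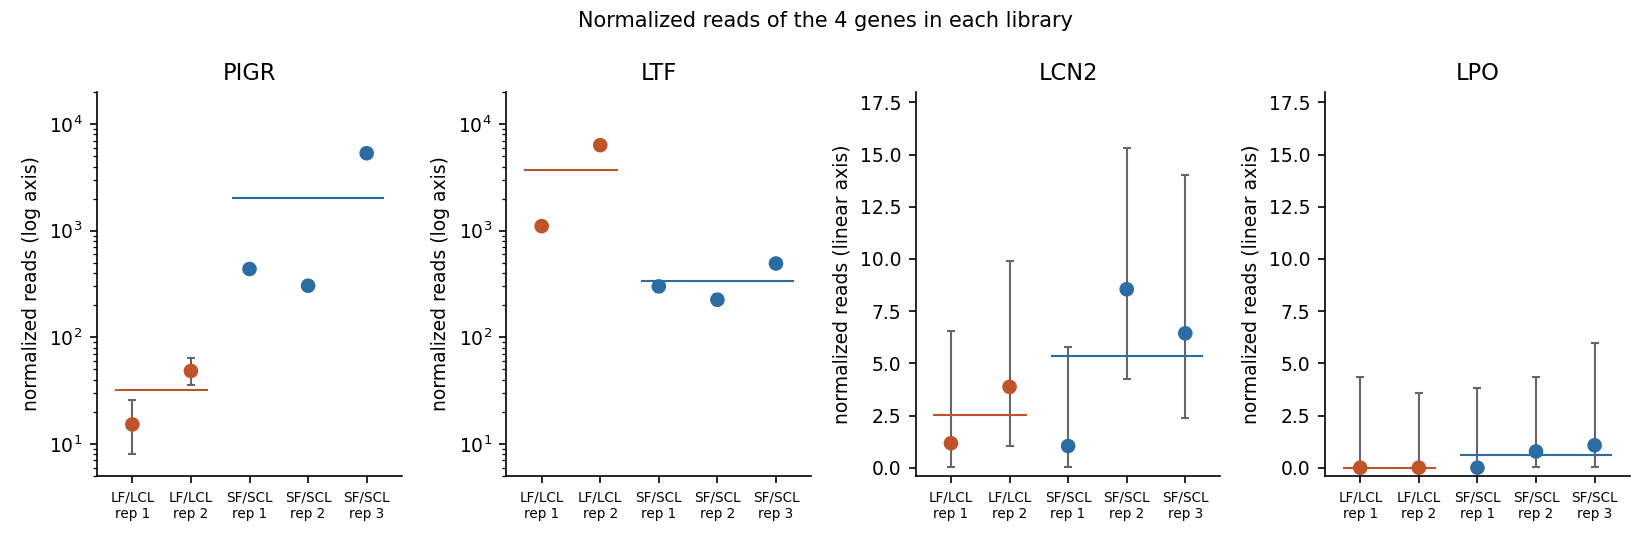
Normalized reads of PIGR, LTF, LCN2 and LPO in each of the 5 libraries, on a log axis for PIGR and LTF and a linear axis for LCN2 and LPO. Points are libraries, bars are 95% Poisson intervals (smaller than the point for most PIGR and all LTF values) and horizontal lines are group means. PIGR runs from 15.2 to 5329 and LTF from 225 to 6341, in opposite order between the groups, while LCN2 and LPO stay under 8.6.

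The spread of PIGR and LTF over the libraries was next set beside that of every other gene. The SD of log2(value + 1) over the 5 libraries was 3.21 for PIGR and 1.93 for LTF, against a median of 0.25 over all tested genes. Only 16 of the 15815 genes had a larger SD than PIGR and 153 had a larger SD than LTF. Spread within the groups, which leaves out the group difference, was 1.95 for PIGR and 1.13 for LTF, with a median of 0.23 over tested genes. A larger value was found for 122 genes in the case of PIGR and 732 in the case of LTF. These ranks describe the choice of the genes and carry no test.

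**Figure D2:**
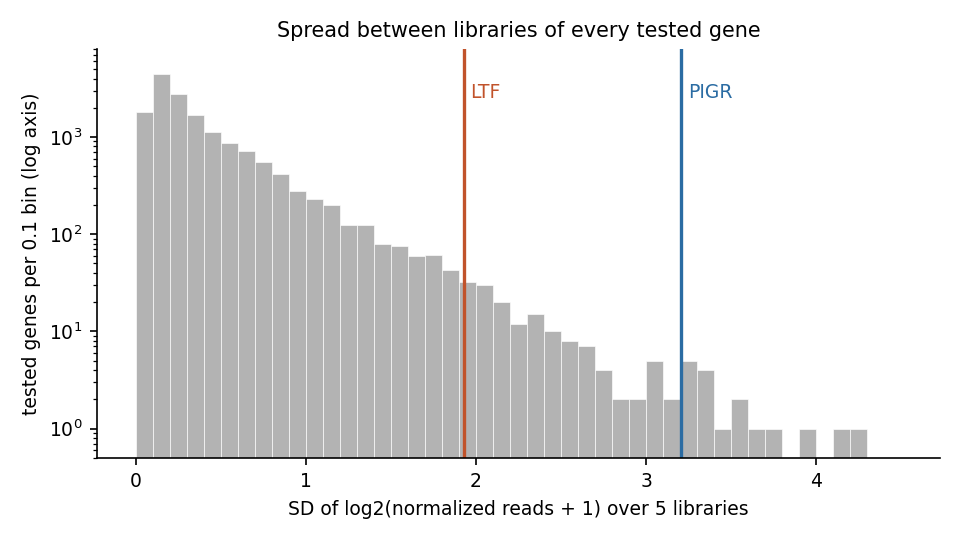
Number of tested genes, on a log axis, by the SD of log2(normalized reads + 1) over the 5 libraries, in bins of 0.1. Vertical lines mark LTF at 1.93 and PIGR at 3.21, both in the far right tail of a distribution whose median is 0.25.

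A single cow far above all others was rare at these levels. Among 13139 tested genes with a mean of at least 50 normalized reads, 289 (2.20%) had one library at least 2 times the next, 103 of them with LF/LCL replicate 2 on top, 96 with LF/LCL replicate 1 and 50 with SF/SCL replicate 3. SF/SCL replicates 1 and 2 stood on top in 15 and 25 of these genes. At a factor of 10 there were 5 genes, and PIGR was one of them. The others, named after their values were seen, were PGA and ABCA4 with a SF/SCL library on top, OTOG with LF/LCL replicate 2 on top, and THBS4 with SF/SCL replicate 3 on top. A gap as large as that of LTF was found for 22 genes (0.167%), LTF among them, 8 of which had LF/LCL replicate 2 on top. PIGR and LTF were proposed for their variation between libraries, so these counts and shares describe that choice and carry no test.

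Because PIGR and LTF had opposite orders between the groups, their balance was also followed in each library. Within each group both genes ranked the libraries alike. Both were lower in replicate 1 of LF/LCL than in replicate 2, and rose from replicate 2 through 1 to 3 in SF/SCL. The ratio of LTF to PIGR normalized reads was 72.4 and 131 in LF/LCL replicates 1 and 2. In SF/SCL replicates 1, 2 and 3 it was 0.686, 0.740 and 0.0924. As the ratio is not per length, its change between libraries can be read and its size cannot. Replicates 1 and 2 of SF/SCL were close to each other, and replicate 3 stood apart through PIGR. The 4 genes together took from 0.00354% to 0.0408% of the reads of a library.

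Genes with profiles like those of PIGR and LTF were sought among 11694 genes with a mean of at least 50 normalized reads and a symbol carried by 1 row. Likeness was the root mean square difference of log2(value + 1) over the 5 libraries, after each profile was centred on its own mean. The closest to PIGR was GLP1R, the receptor for glucagon-like peptide 1, with a difference of 1.15 on the log2 scale. It had 2.35 and 33.9 normalized reads in LF/LCL against 203, 92.5 and 367 in SF/SCL. Next were SLC45A2, a melanosome transporter (1.18), CDH17, the liver-intestine cadherin (1.24), SIX3, a homeobox factor (1.39), and CYP2C19, a cytochrome P450 (1.46). All 5 had their highest value in SF/SCL replicate 3, but in none of them was the gap to the next library as large as for PIGR. CDH17 had 4.69 and 22.3 normalized reads in LF/LCL against 92.5, 56.0 and 209 in SF/SCL. Values of CYP2C19 are uncertain, as close relatives in its family may share reads.

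The genes closest to LTF had their highest value in LF/LCL replicate 2. CCL8, a chemokine for monocytes, differed by 0.68 on the log2 scale, with 41.0 and 244 normalized reads in LF/LCL against 33.3, 18.7 and 18.2 in SF/SCL. HSPA12A, a distant relative of heat shock protein 70, followed at 0.76, and GRIN3A, a glutamate receptor subunit, at 0.77. The other two were IFIT1 (0.81) and ISG15 (0.84), both induced by interferon. IFIT1 had 603 normalized reads in LF/LCL replicate 1 and 4215 in LF/LCL replicate 2, and from 424 to 675 in SF/SCL. ISG15 had 1885 and 8276 in LF/LCL and lay between 1083 and 1818 in SF/SCL. Unlike LTF, both had values in LF/LCL replicate 1 close to those of SF/SCL. This library lay within the SF/SCL range for IFIT1 and just above it for ISG15. It also lay within that range for HSPA12A, at 96.2 normalized reads against 75.4 to 98.8. For GRIN3A it lay above, at 97.3 against at most 22.9. For LCN2 and LPO no such genes are named, because profiles of at most 11 reads per library are set largely by counting error.

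**Figure D3:**
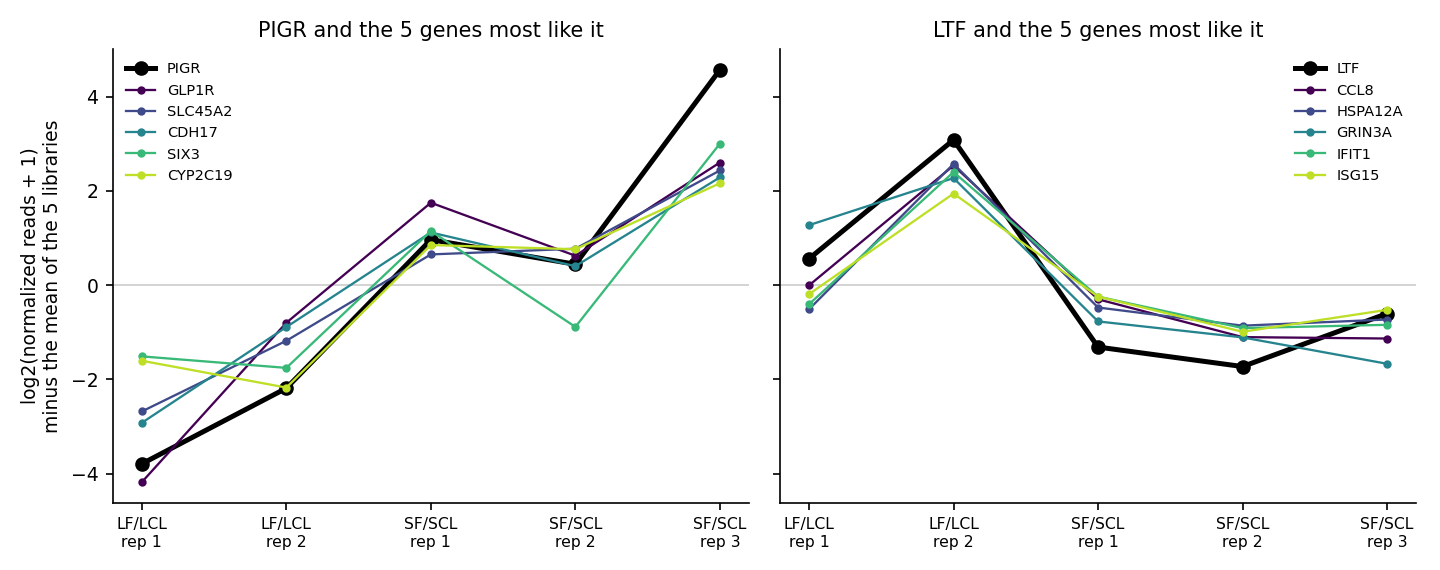
Profiles over the 5 libraries of PIGR (left) and LTF (right), in black, and of the 5 genes most like each, as log2(normalized reads + 1) minus the mean of the gene. Lines only join values of one gene, since libraries have no order. PIGR and its nearest genes peak in SF/SCL replicate 3, and LTF and its nearest genes in LF/LCL replicate 2.

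The cargo of PIGR and the cells that make it were read from a list for immunoglobulin transport and plasma cells. With limma 0 of the 15815 genes had an adjusted p under 0.05, as in the edgeR quasi-likelihood fit on recovered reads, while 1819 (11.5%) had an unadjusted p under 0.05, 5.64% with LF/LCL higher and 5.86% with SF/SCL higher. DESeq2 on recovered reads called 460 genes (2.91%), 1.40% with LF/LCL higher and 1.50% with SF/SCL higher. These p-values measure the spread between these cows. In each of the 16 lists described from here on, 0 genes had an adjusted p under 0.05 with limma, and DESeq2 called 0 in the peroxidase, iron, lipocalin, macrophage, stromal and blood lists. Of the 21 list genes tested, 1 had an unadjusted p under 0.05 in each direction, shares near those of all genes. The median log2 difference of the list was 0.09, or 0.33 without SF/SCL replicate 3, against 0.01 over all tested genes. JCHAIN (named IGJ in the table), the J chain that joins IgA and IgM and that PIGR binds, had 4045 and 3513 normalized reads in LF/LCL against 3569, 1308 and 6530 in SF/SCL. Its groups overlapped, with a log2 difference of 0.27 ± 0.64 (SE) and a limma adjusted p of 0.915. Its lowest and highest values were in SF/SCL replicates 2 and 3, which were also the lowest and highest of that group for both PIGR and LTF.

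MZB1, a chaperone of plasma cells and B cells, had 122 and 106 normalized reads in LF/LCL against 175, 113 and 186 in SF/SCL, which overlapped. DERL3, a protein of endoplasmic reticulum quality control that plasma cells express, was the list gene with the smallest p. It had 156 and 142 normalized reads in LF/LCL against 362, 368 and 441 in SF/SCL, a log2 difference of -1.38 ± 0.17 (SE) and an adjusted p from limma of 0.178. FCGRT, the neonatal Fc receptor that carries IgG across epithelia, had the opposite sign, with 6264 and 5584 in LF/LCL against 3726, 4318 and 3614 in SF/SCL (log2 difference 0.61 ± 0.12 SE, limma adjusted p 0.235). DESeq2 called both, with an adjusted p of 1.6e-07 for DERL3 and 0.0045 for FCGRT. CCL28, a chemokine that draws IgA plasma cells to mucosa, had from 76.2 to 234 normalized reads with overlapping groups.

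Most other secreted antimicrobial proteins had the sign of LTF, with 20 of 27 log2 differences above 0, against 50.8% of all tested genes. Apart from LTF, LCN2 and LPO, 49 rows of the table matched a list of such proteins and 27 were tested. Of these, 10 (37.0%) had an unadjusted p under 0.05, all with LF/LCL higher, against 5.64% of all tested genes. The groups did not overlap in 11 of the 27 (40.7%) with LF/LCL higher and in 0 with SF/SCL higher, against 15.0% and 15.1% of all tested genes. The median log2 difference was 0.64, and 0 of the 27 passed an adjusted p of 0.05 with limma, while DESeq2 called 9, all with LF/LCL higher. The list was chosen with earlier results of these libraries known, so these shares are not independent evidence of a direction. Without SF/SCL replicate 1, 2 or 3, the unadjusted p was under 0.05 with LF/LCL higher in 11, 9 and 9 of the 27. The shares of all tested genes in these runs were 5.21%, 5.15% and 4.46%. With SF/SCL higher there were 1, 1 and 0 of the 27.

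WFDC2, a whey acidic protein of genital tract epithelium, had 9259 and 7479 normalized reads in LF/LCL against 2278, 3769 and 1812 in SF/SCL, a log2 difference of 1.74 ± 0.31 (SE) and an adjusted p from limma of 0.218. BPIFB1 and BPIFA1 are secreted relatives of the bactericidal permeability-increasing protein, known from airway mucus. BPIFB1 had 430 and 680 in LF/LCL against 214, 162 and 61.2 in SF/SCL, and BPIFA1 had 50.4 and 56.1 in LF/LCL against 7.28, 7.77 and 3.22 in SF/SCL. Both had their lowest value in SF/SCL replicate 3, the library in which PIGR was highest. CLU, the secreted chaperone clusterin, had 39324 and 34780 in LF/LCL and lay between 22614 and 24506 in SF/SCL.

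The serum amyloid A genes, whose products are acute-phase proteins, had the same sign. M-SAA3.2, the mammary form, had 20979 and 13908 normalized reads in LF/LCL against 6656, 6273 and 4481 in SF/SCL, a log2 difference of 1.58 ± 0.24 (SE) and an adjusted p from limma of 0.178. SAA3 had 18764 and 15534 in LF/LCL and lay between 6398 and 10763 in SF/SCL, and SAA1 had 888 and 763 in LF/LCL and lay between 286 and 404 in SF/SCL. These copies are much alike and may share reads, so their separate values are uncertain. The calcium-binding S100A12 had 244 and 241 in LF/LCL and lay between 59.3 and 103 in SF/SCL, while S100A8 had 38.7 and 29.0 in LF/LCL and at most 2.15 in SF/SCL. LYSB, a lysozyme, had 16.4 and 15.5 normalized reads in LF/LCL and at most 6.24 in SF/SCL. In each of these 10 genes the LF/LCL libraries were closer to each other than for LTF, which differed 5.75-fold between them.

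The last of the 11 genes without overlap was S100A9, with 11.7 and 11.6 normalized reads in LF/LCL and at most 9.66 in SF/SCL, and its unadjusted p was 0.354. The groups overlapped for the 16 remaining tested proteins of the list. PI3, the elastase inhibitor elafin, had 672 and 913 normalized reads in LF/LCL against 1157, 3641 and 641 in SF/SCL. LYZ, a lysozyme, had 306 and 196 in LF/LCL against 325, 49.7 and 343 in SF/SCL. DMBT1, a mucosal scavenger receptor protein, had 198 in SF/SCL replicate 2 and from 11.7 to 28.1 in the other libraries. The epithelial defensins and cathelicidins in the table were at or near 0. TAP, CATHL1, CATHL3, CATHL4 and CATHL6 had no read in any library, and LAP had at most 7.77 normalized reads. Thus LCN2 was not alone among secreted defense genes in being barely covered in these ampullae.

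**Figure D4:**
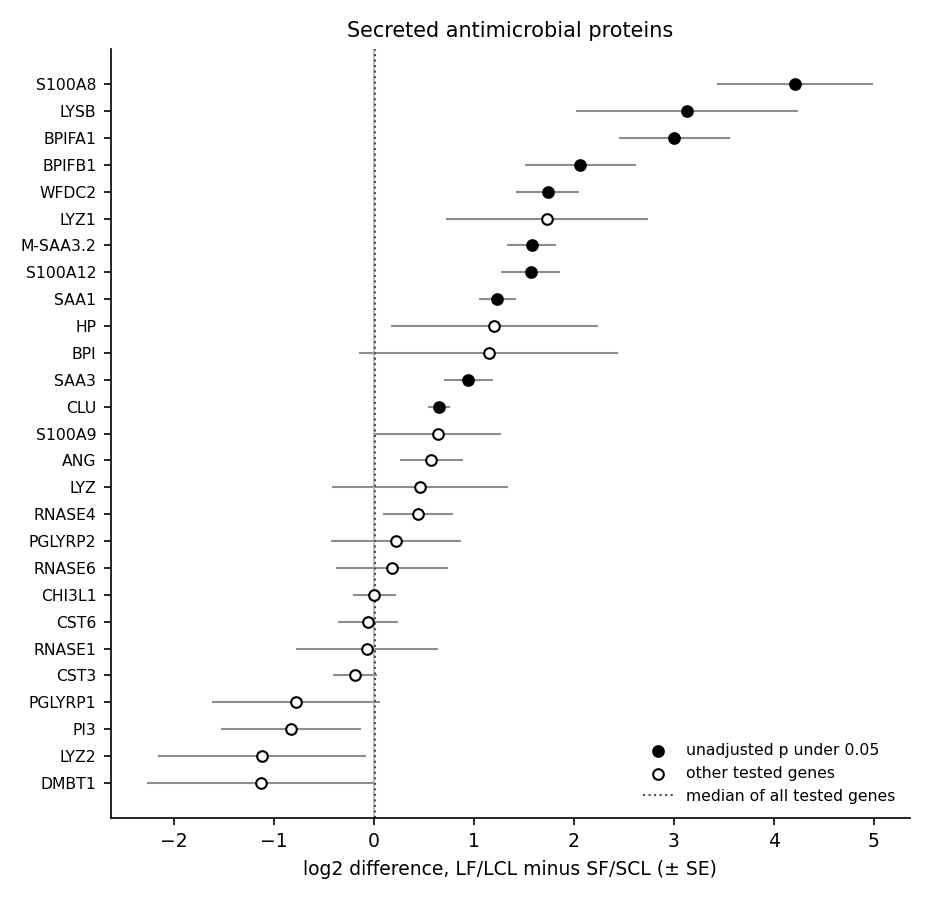
Log2 difference of LF/LCL minus SF/SCL with its SE from limma, on the log2(value + 1) scale, for the 27 tested genes of the secreted antimicrobial list (LTF, LCN2 and LPO are not in it). Filled points have an unadjusted p under 0.05, which 10 genes do, all to the right of 0, and the dotted line is the median of all tested genes at 0.01.

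The oxidases that feed LPO were barely covered as well. DUOX1 and DUOX2, the oxidases that supply hydrogen peroxide at epithelial surfaces, had from 2.33 to 17.4 and from 0 to 4.69 normalized reads. MPO, the neutrophil peroxidase and closest relative of LPO among the genes examined, had at most 7.74. Of the 10 genes of the peroxidase list that were tested, 1 had an unadjusted p under 0.05, with SF/SCL higher, against 5.86% of all tested genes. This was ANO1, a chloride channel that also conducts thiocyanate, with 1959 and 1497 normalized reads in LF/LCL against 2200, 3293 and 4491 in SF/SCL (log2 difference -0.90 ± 0.31 SE, limma adjusted p 0.375). CAT, catalase, which removes hydrogen peroxide, had from 3820 to 5446 with overlapping groups.

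Iron binding and uptake genes were read because LTF and LCN2 both withhold iron. Of 23 genes tested, 1 (4.35%) had an unadjusted p under 0.05 with LF/LCL higher and 2 (8.70%) with SF/SCL higher, against 5.64% and 5.86% of all tested genes. TF, serum transferrin and the nearest relative of LTF, had 86.8 and 60.0 normalized reads in LF/LCL against 54.1, 28.8 and 9.66 in SF/SCL, which did not overlap. Its log2 difference was 1.50 ± 0.72 (SE), with a limma adjusted p of 0.492. MELTF (named MFI2), melanotransferrin, had from 9.36 to 29.5 with overlapping groups. LRP2, the endocytic receptor megalin that takes up lipocalins and lactoferrin, had 218 and 372 normalized reads in LF/LCL against 601, 636 and 432 in SF/SCL (log2 difference -0.94 ± 0.28 SE, limma adjusted p 0.330). SLC22A17, a receptor for LCN2, had 801 and 438 in LF/LCL against 529, 440 and 912 in SF/SCL, and FTH1, the ferritin heavy chain, had from 4583 to 7577. HEPH, a ferroxidase of iron export, had 318 and 397 in LF/LCL against 512, 599 and 529 in SF/SCL (limma adjusted p 0.298).

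Some other lipocalins were covered well enough to be compared. APOD had from 1529 to 4269 normalized reads, PTGDS, the lipocalin-type prostaglandin D synthase, from 750 to 1622, and RBP4, the retinol carrier, from 457 to 835. All 3 overlapped between the groups. Of the 6 lipocalins tested, 2 had an unadjusted p under 0.05, C8G and AMBP, both with LF/LCL higher, against 5.64% of all tested genes. C8G, a complement chain, had 435 and 459 in LF/LCL and lay between 267 and 357 in SF/SCL. The genes LCN1, LCN8, LCN9, LCN10, LCN12 and LCN15 had at most 1.55 normalized reads in any library.

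Cytokine and receptor genes that induce PIGR, LTF or LCN2 in epithelia were read next. Among 29 tested, 3 (10.3%) had an unadjusted p under 0.05 with LF/LCL higher and 3 with SF/SCL higher, against 5.64% and 5.86% of all tested genes, and the median log2 difference was 0.07. TLR4, the endotoxin receptor, had 882 and 816 normalized reads in LF/LCL against 445, 713 and 516 in SF/SCL, and TLR2 and IL1B also had higher values in LF/LCL. IL17RE, a receptor of epithelial interleukin-17C, had 31.7 and 25.2 in LF/LCL against 45.7, 83.2 and 70.8 in SF/SCL, and TRAF3IP2, its adaptor, had 1017 and 986 against values from 1146 to 1205. One of 2 rows named IL6 had 3.52 and 3.87 in LF/LCL against 10.4, 69.2 and 33.3 in SF/SCL. It was the list gene that DESeq2 called, with an adjusted p of 0.048. The other IL6 row was under the minimum for testing. Its groups overlapped, with 3.52 and 3.87 in LF/LCL against 7.28, 6.99 and 2.15 in SF/SCL. IL22RA1 had no read.

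Steroid receptors were set beside LTF because of its known response to estrogen. In this list of receptors and estrogen-responsive genes, 1 of 14 tested (7.14%) had an unadjusted p under 0.05 with LF/LCL higher and 2 (14.3%) with SF/SCL higher, against 5.64% and 5.86% of all tested genes. ESR1 had 4347 and 3578 normalized reads in LF/LCL and lay between 2248 and 2985 in SF/SCL (limma adjusted p 0.330), and ESR2 had 385 and 300.1 in LF/LCL against 265, 135 and 63.3 in SF/SCL. PGR overlapped between the groups. GREB1, another estrogen-responsive gene, had the sign opposite to LTF, with 1114 and 953 in LF/LCL against 1983, 2611 and 2403 in SF/SCL, a log2 difference of -1.17 ± 0.15 (SE) and an adjusted p from limma of 0.178. DESeq2 called GREB1 alone in this list, with an adjusted p of 2.8e-07. C3, the central complement component and also estrogen-responsive in the uterus of rodents, had 7330 and 6291 normalized reads in LF/LCL against 11960, 19687 and 48735 in SF/SCL (log2 difference -1.73 ± 0.56 SE, limma adjusted p 0.362). Like PIGR it was highest in SF/SCL replicate 3.

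Markers of cell types were summed in each library to show what moved beside PIGR and LTF. The 17 secretory epithelial markers, of which OVGP1 made up the greater part of the reads, summed to between 181019 and 209899 normalized reads, a range of 1.16-fold, while PIGR ranged 349.6-fold and LTF 28.1-fold. Ciliated cell markers summed to 75255 and 94451 in LF/LCL and lay between 109670 and 114376 in SF/SCL. Of the 20 tested ciliated markers, 12 had an unadjusted p under 0.05, all with SF/SCL higher, against 5.86% of all tested genes. There were 4 without LF/LCL replicate 1 and 7 without SF/SCL replicate 2, against 3.88% and 5.33% of all tested genes, and DESeq2 called 3. The secretory list had 5 with LF/LCL higher and 2 with SF/SCL higher, against 5.64% and 5.86% of all tested genes, and DESeq2 called 2 and 1. The groups did not overlap in 8 of the 17 (47.1%) with LF/LCL higher and in 2 (11.8%) with SF/SCL higher. The shares over all tested genes were 15.0% and 15.1%. The 12 smooth muscle markers summed to 143237 and 75519 in LF/LCL and to 46934, 49755 and 19404 in SF/SCL, the reverse of the order of PIGR in all 5 libraries. For example DES, desmin, had 23805 normalized reads in LF/LCL replicate 1 and 2943 in SF/SCL replicate 3. Among the 12, 10 had an unadjusted p under 0.05, all with LF/LCL higher, against 5.64% of all tested genes. Without LF/LCL replicate 1 there were 2, against 3.92% of all tested genes. DESeq2 called 5 of the 12, DES among them. The part of muscle content in the difference of PIGR was not tested.

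White blood cells are another source of LTF and LCN2. Of 25 matched neutrophil marker rows, 4 had no read in any library and 11 were tested. The matched rows summed to 849 and 1202 normalized reads in LF/LCL against 734, 493 and 644 in SF/SCL, a range of 2.44-fold. Much of this sum came from FCGR3A, with 235 and 507 in LF/LCL and from 158 to 386 in SF/SCL. S100A12 also held much of it, with 244 and 241 in LF/LCL and from 59.3 to 103 in SF/SCL. The granule genes MMP8, CATHL1 and CATHL3 had no read, CSF3R, the receptor for granulocyte growth factor, had at most 4.69, and the rows of CXCR2 at most 3.12. Of the 11 tested, 2 (18.2%) had an unadjusted p under 0.05, both with LF/LCL higher, against 5.64% of all tested genes. They were S100A8 and S100A12, which are also in the antimicrobial list, and DESeq2 called both. The groups did not overlap in 5 (45.5%) with LF/LCL higher and in 0 with SF/SCL higher, against 15.0% and 15.1% of all tested genes. Log2 differences were above 0 for 9 of the 11, with a median of 0.52. Lymphocyte markers summed to 3174 and 4113 in LF/LCL and lay between 2001 and 2113 in SF/SCL. Of 21 tested, 9 had an unadjusted p under 0.05, all with LF/LCL higher, against 5.64% of all tested genes. Without LF/LCL replicate 2 there were 3, against 4.81%, and DESeq2 called 2 of the 21, CD247 among them. CD247, a chain of the T cell receptor complex, had 521 and 1051 in LF/LCL and lay between 201 and 287 in SF/SCL. The 14 tested macrophage and dendritic cell markers held 0 with an unadjusted p under 0.05, against 11.5% of all tested genes. The sum of the matched markers was highest, at 7991, in LF/LCL replicate 2. The part of these cells in the values of LTF was not tested.

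**Figure D5:**
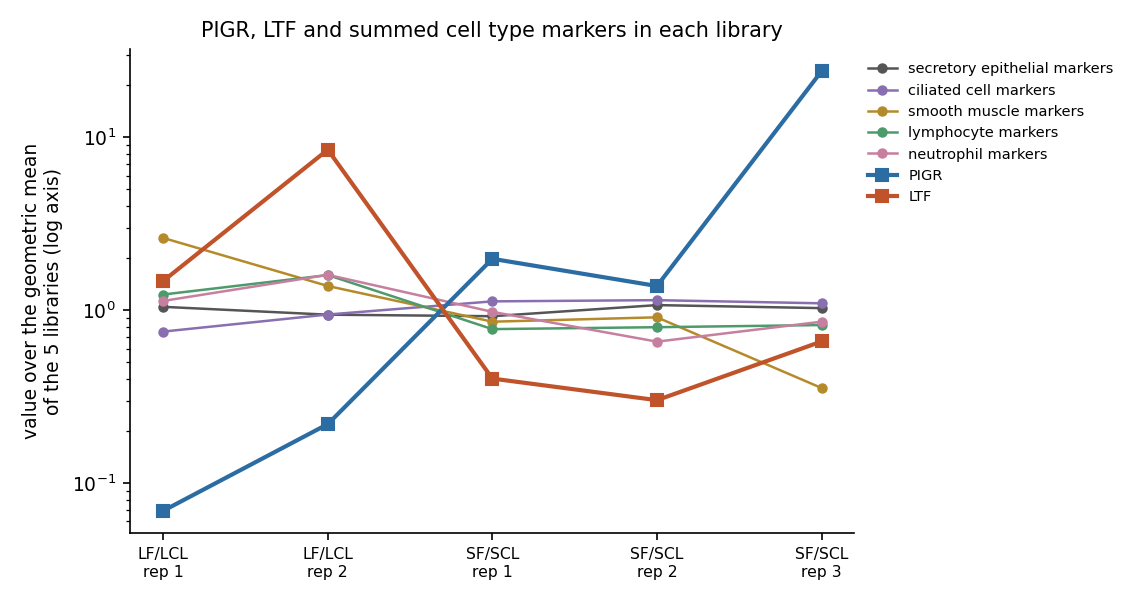
PIGR, LTF and the summed normalized reads of 5 marker lists in each library, each divided by its own geometric mean over the 5 libraries, on a log axis. Lines only join values of one gene or list. The sum of secretory epithelial markers, of which OVGP1 makes up the greater part, stays within 1.16-fold. Smooth muscle markers are highest in LF/LCL replicate 1 and lowest in SF/SCL replicate 3 over a 7.38-fold range. PIGR and LTF range 349.6-fold and 28.1-fold.

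Stromal fibroblast markers (12 tested) had a median log2 difference of 0.87, or 0.18 without LF/LCL replicate 1 and 0.42 without SF/SCL replicate 2. With all libraries 0 of them had an unadjusted p under 0.05, against 11.5% of all tested genes. Their sum was highest in LF/LCL replicate 1 and lowest in SF/SCL replicate 2. Endothelial markers had a median of 0.27, but -0.22 without LF/LCL replicate 1 and -0.09 without SF/SCL replicate 2. Of these, 1 of 9 had an unadjusted p under 0.05, with SF/SCL higher, against 5.86% of all tested genes. This was KDR, which DESeq2 also called. The 3 tested blood rows had a median of 1.63, or 0.44 with LF/LCL replicate 1 left out and 3.21 with replicate 2 of that group left out. All matched blood rows had a sum of 528 in LF/LCL replicate 1 and 32.2 in SF/SCL replicate 1.

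The tested genes beside the 4 on their chromosomes had small differences, but PIGR had only 1 tested neighbor. Gene order was taken from the RefSeq annotation of a Bos indicus assembly (NIAB-ARS_B.indTharparkar), not of the UMD 3.1 build on which the reads were counted, and no coordinates are given for that reason. Of 24 protein-coding neighbors, 3 on either side of each gene, 17 were matched by symbol and 13 were tested. Of these 13, 5 were neighbors of LTF, 5 of LCN2, 2 of LPO and 1 of PIGR, which was YOD1 (log2 difference -0.097). The log2 differences of the 13 ran from -0.15 to 0.50. Of the 13, 0 had an unadjusted limma p under 0.05, against 11.5% of all tested genes. The smallest was 0.0853 (PTGES2, beside LCN2). FCAMR, the Fc receptor for IgA and IgM that adjoins PIGR, had no read in LF/LCL and 1.04, 4.66 and 1.07 normalized reads in SF/SCL. CCRL2, a chemokine receptor adjoining LTF, had 63.3 and 99.7 in LF/LCL and lay between 63.3 and 89.4 in SF/SCL, and MPO, which adjoins LPO, is described above.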

How the data were processed

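Oviduct ampulla RNA of 5 cows was sequenced by the authors as polyA TruSeq read pairs. They filtered reads with seqyClean and aligned them with TopHat2 2.0.8 and Bowtie2 2.1.0 to a repeat-masked cattle genome (UMD 3.1). Uniquely mapped reads were counted per Ensembl gene with HTSeq 0.5.4p2 (versions from the submitters' processing notes), so that near-identical copies can lose reads. Whether strand was used is not given in the sources used here. The deposited unit is a normalized signal, the count divided by one DESeq 1.12.1 size factor per library. Groups came from the sample titles, and replicates were numbered in accession order.

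Values divided by the smallest step of each library gave whole reads (within 0.02) for 100% of nonzero values. The design assumed that normalized values might be found. Limma 3.58.1 (R 4.3.3; trend and robust) was run on log2(value + 1) for genes with a mean over 5, two-sided, with Benjamini-Hochberg adjustment, beside edgeR 4.0.16 and DESeq2 1.42.0 on recovered reads. Folds on this scale understate low genes. The scripts were tested on simulated data. Intervals are exact Poisson at 95%.

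The 4 genes and 16 lists were chosen with earlier results of these data known. Lists matched symbols or older symbols, and genes carried by several rows are counted by row. Named genes were the 4 genes, the 5 most alike (single-row symbol, mean of at least 50), per list up to 6 with the smallest p and 3 with the highest mean, protein relatives, steroid receptors and markers at 0. A few further list members, the genes with one library far on top, and chromosome neighbors were named after their values were seen. Protein and promoter sequences were not used here.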

Additional observations from a re-analysis of the deposited data

How the results depend on the processing

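Alternatives were other tests, scalings, pseudocounts, filters and variance estimation, and leaving out each library. Counts in single lists without a library, or with another test or scaling, were added after seeing the data. No paired analysis was possible because each library came from a different cow and no cow was in both groups. Groups of 2 and 3 cows and the reads of LCN2 (23) and LPO (2) limit precision, and LPO and, in the count models, LCN2 gave no value. Without an LF/LCL library the lone one is assumed to vary like the SF/SCL libraries.

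At an adjusted p of 0.05 limma called 0 genes, against 460 with DESeq2 (222 with LF/LCL higher) and 0 under the other settings, from 0 to 0 without one library. The cause was not tested. The number with an unadjusted p under 0.05, 1819, ran from 1233 to 1658 without one library. The sign of the difference of PIGR, LTF and LCN2 was the same under all settings run. For PIGR and LTF, whose groups do not overlap, leaving out a library could not have reversed it. For LCN2 nothing is read from the sign, because a difference was not detectable at its depth. Without one library PIGR ran from -5.78 to -3.69, LTF from 1.77 to 4.30 and LCN2 from -1.37 to -0.11. With edgeR PIGR was -5.94, or 61.5-fold.

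List medians moved without one library. They ran from 0.057 to 0.33 for immunoglobulin transport, from 0.46 to 0.98 for antimicrobial proteins, from -0.086 to 0.12 for the peroxidase list (0.26 without a filter), from 0.0030 to 0.16 for iron genes, from 0.13 to 0.45 for lipocalins, from -0.0070 to 0.17 for inducers, from -0.18 to 0.045 for steroid receptors and targets, from 0.27 to 0.77 for neutrophil, from -0.22 to 0.49 for macrophage, from 0.62 to 1.01 for lymphocyte, from 0.022 to 0.27 for secretory, from -0.52 to -0.24 for ciliated, from 0.97 to 1.92 for smooth muscle, from 0.18 to 1.28 for stromal, from 0.44 to 3.21 for blood and from -0.22 to 0.63 for endothelial markers. Signs thus reversed for the peroxidase, inducer, steroid, macrophage and endothelial lists. Counts also moved, to 3 of 21 lymphocyte markers without LF/LCL replicate 2, to 4 of 20 ciliated markers without LF/LCL replicate 1 and 7 without SF/SCL replicate 2 (12 with all libraries), and to 2 of 12 smooth muscle markers without LF/LCL replicate 1.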
